A study of Mus musculus with 6 samples.

Results

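Insulin-like growth factor 1 (IGF1), its binding proteins and its receptors were read from liver arrays of progeroid and normal mice. The group comprised 10 genes: Igf1, Igfals, Igfbp1, Igfbp2, Igfbp3, Igfbp4, Igfbp5, Igfbp7, Igf1r and Igf2r. Each was taken as the probe sets annotated with that symbol alone, which gave 1 probe set per gene, 10 of 35512 in all, and all 10 passed the filter on low values. The tested livers came from 3 mice homozygous for the LmnaG609G knock-in allele (LmnaG609G/G609G, mice 1, 3 and 5 by their replicate numbers), and the livers they were set against came from 3 wild-type Lmna+/+ mice (mice 2, 4 and 6). All 6 mice were C57BL/6 females, 3 months old and starved for 6 h before they were killed, with 1 array per mouse. The allele is a point change in Lmna, the gene of lamins A and C, that alters splicing and makes the homozygote a model of Hutchinson-Gilford progeria. It sits in the germline, so every tissue of these mice carried it, and the labels do not say whether the groups were littermates.

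Liver is the main source of circulating IGF1, which it makes under the control of growth hormone. In blood most IGF1 travels in a ternary complex with IGFBP3 or IGFBP5 and the acid-labile subunit, the product of Igfals, while the smaller binding proteins carry the rest and can withhold it from its receptor. IGFBP1 is the member that changes fastest with feeding: insulin shuts off its transcription in hepatocytes, and fasting releases it.

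Values are linear array intensities as deposited, and differences are knock-in minus wild-type on the scale log2(intensity + 16), tested with limma over 26634 probe sets. A probe set was called changed where its Benjamini-Hochberg adjusted p lay below 0.05. Of all tested probe sets, 25.9% were called, 14.9% higher and 10.9% lower in knock-in liver. The split of all calls was 3974 higher and 2914 lower, and 3119 higher and 3424 lower after the array medians were set equal. Array medians lay between 97.0 and 104. The targeted gene read 290, 249 and 258 in knock-in livers and 282, 267 and 362 in wild-type livers, and its single probe set does not check the genotype. Hepatocyte markers stood among the brightest signals in both groups, with albumin at 16618 to 18818 in knock-in and 16607 to 17889 in wild-type liver. No intensity says how much RNA each cell held, so in whole liver fewer cells of a type and less RNA per cell cannot be told apart.

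Of the 10 genes, 6 were called: Igfbp1 and Igf1r higher, and Igfals, Igfbp2, Igfbp4 and Igf2r lower in knock-in liver. The hormone gene Igf1 was not called. The genotypes did not overlap at 7 of the 10, where 41.1% of all tested probe sets showed no overlap. The median log2 change of the 10 was -0.16, against 0.03 over all tested probe sets. Called changes of 2-fold or more were found in 2 of the 10, Igfbp1 and Igfals, against 5.4% of all tested probe sets, and these moved in opposite directions.

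**Figure D1:**
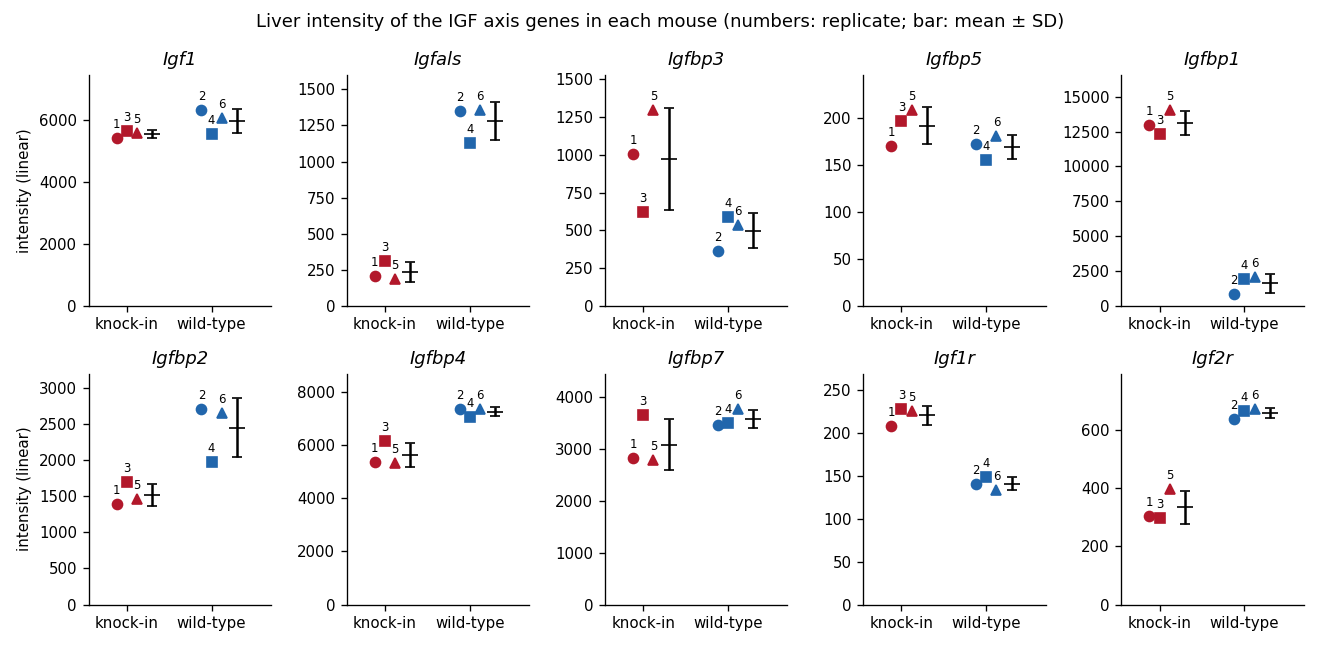
Array intensity (linear scale from 0) of each of the 10 genes in 3 knock-in (red) and 3 wild-type (blue) livers. Each point is a mouse with its replicate number, the shapes only tell the mice of a group apart, and the bar beside the points is the mean ± SD. The genotypes lie apart for Igfals, Igfbp1, Igfbp2, Igfbp3, Igfbp4, Igf1r and Igf2r and overlap for Igf1, Igfbp5 and Igfbp7.

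Igf1 encodes the hormone itself. It read 5393, 5648 and 5563 in knock-in livers and 6309, 5541 and 6046 in wild-type livers. The lowest wild-type mouse lay within the knock-in range, so the groups overlapped. The log2 change was -0.11 ± 0.07 (SE, n = 3 mice per genotype; 95% interval -0.28 to 0.07; limma adjusted p = 0.357). The probe set gives 1 value for all Igf1 transcripts and cannot separate its promoters or splice forms. The other ligand gene, Igf2, which mouse liver largely silences after birth, was dim in both groups at 121, 118 and 122 in knock-in and 96, 94 and 97 in wild-type livers. Igf2 was called higher by 0.29 ± 0.07 (SE; limma adjusted p = 0.0215), a call that did not survive leaving out mouse 1, 2, 4, 5 or 6 (adjusted p = 0.0586 to 0.0708).

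Igfals encodes the acid-labile subunit, the liver protein that closes the ternary complex and prolongs the life of IGF1 in blood. It read 204, 311 and 187 in knock-in livers and 1351, 1126 and 1357 in wild-type livers. All knock-in mice lay far below all wild-type mice, with knock-in mouse 3 the least low. The log2 change was -2.40 ± 0.19 (SE, n = 3 mice per genotype), or 5.27-fold lower (limma adjusted p = 0.000415), and only 73 of 26634 probe sets had a more negative change. Set against the change of Igf1 in the same mice, the difference in log2 change, Igfals minus Igf1, was -2.29 ± 0.20, beyond the spread of that difference among knock-in mice (0.67) and among wild-type mice (0.14).

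RefSeq lists 3 starts for Igfals, and 1 of the stretches before them holds a STAT5 motif close to the start. STAT5 is the factor through which growth hormone induces this gene in rodents. The 250 bases before that start (GRCm38.p6, chr17:24877981-24878230, plus strand), which lie downstream of another of the 3 listed starts, are shown because they carry the motif TTCNNNGAA, 58 bases before the start, with a FOXO motif GTAAACA on the opposite strand 242 bases before it. Both matches stand in capitals.
Igfals: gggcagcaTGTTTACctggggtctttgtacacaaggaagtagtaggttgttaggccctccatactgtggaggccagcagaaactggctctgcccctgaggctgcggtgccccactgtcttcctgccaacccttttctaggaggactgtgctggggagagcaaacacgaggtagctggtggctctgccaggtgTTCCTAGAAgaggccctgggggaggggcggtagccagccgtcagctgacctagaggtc
The motif TTCNNNGAA reads the same on both strands and occurs in 7.02% of 32851 RefSeq promoter windows of that length, and GTAAACA on either strand in 3.17%. Another Igfals window also held TTCNNNGAA, 236 bases before its start. A match is only a description of the letters.

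Neither binding protein that joins the ternary complex was called. Igfbp3, the main carrier of IGF1 in blood, which in rat liver is made mostly by cells other than hepatocytes, read 1003, 619 and 1297 in knock-in livers and 366, 589 and 535 in wild-type livers. All knock-in mice lay above all wild-type mice, but knock-in mouse 3 exceeded wild-type mouse 4 by little. The log2 change of Igfbp3 was 0.91 ± 0.28 (SE, n = 3 mice per genotype; 95% interval 0.26 to 1.57; limma adjusted p = 0.05002), just outside the threshold. Without knock-in mouse 3 it was 1.20 and called (adjusted p = 0.00689). Leaving out any of the other mice gave an adjusted p of 0.0695 to 0.149. Of the members it varied most among knock-in livers, with a coefficient of variation of 34.9% there and 23.4% among wild-type livers. Igfbp5, the other binding protein able to enter the complex, read 171, 197 and 209 in knock-in livers and 173, 156 and 181 in wild-type livers. These ranges overlapped, and its log2 change of 0.16 ± 0.11 (SE) was not called (limma adjusted p = 0.316).

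Igfbp1 encodes the binding protein whose level in blood swings with insulin. It read 12978, 12323 and 14052 in knock-in livers and 847, 1909 and 2054 in wild-type livers. The lowest knock-in value was several times the highest wild-type value, and wild-type mouse 2 stood below the other wild-type mice. The coefficient of variation was 6.65% in knock-in livers and 41.1% in wild-type livers, the latter owing mostly to mouse 2. In intensity units the SD was 873 in knock-in and 659 in wild-type livers. The log2 change was 3.12 ± 0.31 (SE, n = 3 mice per genotype), an 8.69-fold rise (limma adjusted p = 0.000863), which ranked 15th from the top among 26634 probe sets. Without wild-type mouse 2 the change was 2.72 and still called.

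The 250 bases before the start of Igfbp1 (GRCm38.p6, chr11:7197537-7197786, plus strand, upstream of its annotated first exon) are shown because they hold the insulin response element, through which FOXO factors drive the gene when insulin is low. Capitals mark the searched core CAAAACA, 108 bases before the start.
Igfbp1: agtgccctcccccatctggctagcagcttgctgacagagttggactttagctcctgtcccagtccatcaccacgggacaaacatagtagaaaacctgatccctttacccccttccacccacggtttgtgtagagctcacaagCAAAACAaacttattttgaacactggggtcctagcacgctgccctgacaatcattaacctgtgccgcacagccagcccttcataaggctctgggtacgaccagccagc
The core was found on either strand in 5.56% of the 32851 RefSeq windows and in 1 of the 13 windows of the members. GTAAACA was absent from this window, and the palindromic glucocorticoid response element, found in 0.387% of all windows, was in 0 of the members' windows, which says only that these letters are not there.

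Igfbp1 and Igfbp3 are neighbours on chromosome 11, with 0 protein-coding genes between them in the RefSeq annotation of GRCm38.p6. The change of Igfbp1 exceeded that of Igfbp3 by 2.21 ± 0.33 on the log2 scale. Igfbp2 and Igfbp5 form a second such pair on chromosome 1, also with 0 protein-coding genes between them. Igfbp2, a circulating binding protein made by hepatocytes, read 1397, 1694 and 1456 in knock-in livers and 2711, 1981 and 2658 in wild-type livers. Every knock-in mouse was below every wild-type mouse, with knock-in mouse 3 and wild-type mouse 4 nearest to each other. The log2 change was -0.68 ± 0.14 (SE, n = 3 mice per genotype), or 1.60-fold lower (limma adjusted p = 0.0131). Leaving out knock-in mouse 1 (adjusted p = 0.0562), wild-type mouse 2 (0.0511) or wild-type mouse 6 (0.0506) ended that call. The difference in log2 change, Igfbp2 minus Igfbp5, was -0.84 ± 0.13. The change of Igfbp1 exceeded that of Igfbp2 by 3.80 ± 0.51 on the log2 scale.

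Across the pairs set against each other within mice (Igfals and Igf1, Igfbp1 and Igfbp3, Igfbp1 and Igfbp2, Igfbp2 and Igfbp5, Igf1r and Igf2r), an exact two-sided permutation test gave p = 0.1 for each of the 5, before and after adjustment. That is the smallest p that 3 mice against 3 allow, and the pairs were picked with the values known.

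Igfbp4, an inhibitory binding protein that the protease PAPP-A cleaves, read 5365, 6157 and 5334 in knock-in livers and 7328, 7047 and 7352 in wild-type livers. The wild-type values were tightly grouped (coefficient of variation 2.34%) and all above the knock-in values. The log2 change was -0.37 ± 0.08 (SE, n = 3 mice per genotype), or 1.29-fold lower (limma adjusted p = 0.0133). As for Igfbp2, leaving out mouse 1 (adjusted p = 0.0547), mouse 2 (0.0503) or mouse 6 (0.0540) ended the call. Igfbp7 encodes a distant, low-affinity relative secreted by endothelial and other stromal cells. It read 2824, 3655 and 2780 in knock-in livers and 3456, 3505 and 3777 in wild-type livers. Knock-in mouse 3 lay inside the wild-type range and the other knock-in mice below it. The change of -0.22 ± 0.12 (SE) was not called (limma adjusted p = 0.223), whereas with mouse 3 left out it was -0.35 and called (adjusted p = 0.0186).

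**Figure D2:**
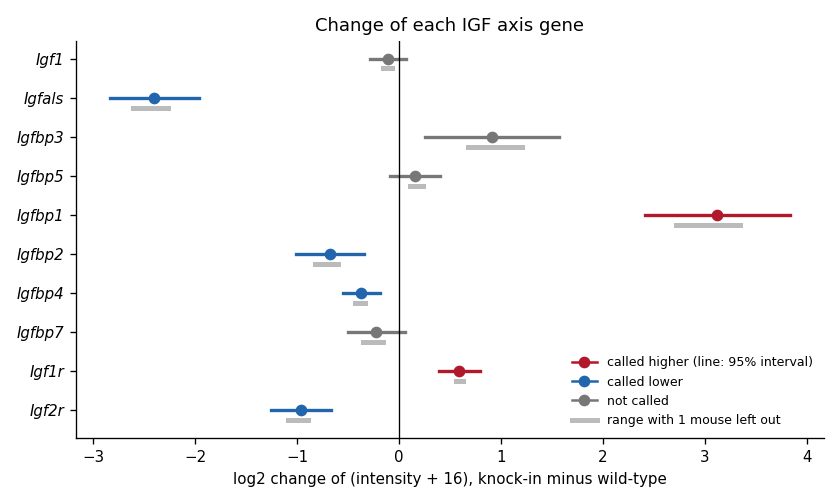
Log2 change of (intensity + 16), knock-in minus wild-type, for each of the 10 genes: points are the estimates with 95% intervals (red, called higher; blue, called lower; grey, not called), and the pale bar under each is the range when 1 mouse is left out. Igfbp1 (3.12) and Igfals (-2.40) lie farthest from 0, and the interval of Igf1 spans 0.

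The receptors moved apart. Igf1r encodes the tyrosine kinase through which IGF1 signals. It read 208, 228 and 226 in knock-in livers and 141, 148 and 134 in wild-type livers, with no overlap and a coefficient of variation of 4.99% and 4.96% within these groups. The rise was 0.59 ± 0.09 on the log2 scale (SE, n = 3 mice per genotype), or 1.51-fold (limma adjusted p = 0.00316). Igf2r encodes the cation-independent mannose 6-phosphate receptor, which clears IGF2 and carries newly made lysosomal enzymes. It read 304, 298 and 398 in knock-in livers and 637, 665 and 672 in wild-type livers. The groups stood well apart, and knock-in mouse 5 was the highest of its group. The log2 change was -0.96 ± 0.13 (SE, n = 3 mice per genotype), or 1.94-fold lower (limma adjusted p = 0.00228). The change of Igf1r exceeded that of Igf2r by 1.55 ± 0.13. The insulin receptor gene Insr, a close relative of Igf1r, read 2097, 2578 and 2237 in knock-in livers and 2437, 2379 and 2610 in wild-type livers on its brighter probe set, and neither of its probe sets was called (limma adjusted p = 0.508 and 0.984).

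The members also differed in which knock-in mouse stood nearest to wild-type. Knock-in mouse 3 was the nearest for 7 of the 10, namely Igf1, Igfals, Igfbp1, Igfbp2, Igfbp3, Igfbp4 and Igfbp7. For Igfbp5 and Igf1r it was mouse 1, and for Igf2r mouse 5. How often mouse 3 was nearest over all tested probe sets was not counted. The 7 therefore cannot be read as particular to the members. Over the whole table, leaving out mouse 3 raised the called probe sets from 6888 to 7728. Without knock-in mouse 3, 3 members were called higher and 5 lower. With mouse 1, 2 or 6 left out, only 2 were called lower. Igfals, Igfbp1, Igf1r and Igf2r stayed called whichever mouse was left out (adjusted p up to 0.0178).

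Markers of other liver cells were read beside the binding proteins made outside hepatocytes, Igfbp3, Igfbp5 and Igfbp7. Without detection calls, the intensities do not show which markers were detected. Over all genes read with 1 probe set each, 13.0% were called higher and 13.7% lower, the shares to set beside the marker counts. Of 11 sinusoidal endothelial markers, 1 was higher and 5 were lower, with summed intensities of 6501 to 8467 in knock-in and 7809 to 8464 in wild-type livers. Lyve1 was the 1 higher, and Stab2, Clec4g, Kdr, Oit3 and Fcgr2b were the 5 lower. With mouse 1 or 2 left out 1 was lower, and with mouse 6 left out 0 were. With mouse 1 left out 2 were higher, and with mouse 5 left out 0 were. Of 11 stellate cell and fibroblast markers, 2 were higher and 2 lower (4 lower without knock-in mouse 3), with sums of 8836 to 10482 in knock-in and 7691 to 8680 in wild-type livers. Dcn and Pdgfra were the 2 higher, and Lrat and Ngfr the 2 lower. Dcn alone made up most of each sum, at 6731, 6736 and 5978 in knock-in and 4891, 4225 and 4704 in wild-type livers. The sums therefore mostly follow Dcn and not the list as a whole. Kupffer cell markers summed to 3781 to 6575 in knock-in and 5484 to 9423 in wild-type livers. Of these 11, Adgre1 alone was called, lower (limma adjusted p = 0.0449). Adgre1 read 168, 193 and 88 in knock-in and 456, 308 and 222 in wild-type livers. With mouse 1, 2, 4 or 5 left out 0 Kupffer markers were lower, with mouse 3 or 6 left out 2 were, and with mouse 5 left out 1 was higher. Of 6 neutrophil markers 3 were higher, with sums of 486 to 516 in knock-in and 341 to 408 in wild-type livers. These were Retnlg, S100a8 and Mmp9, all dim, at 102 or below on every array where array medians were 97.0 to 104. S100a9, Ly6g and Csf3r were not called. The part of these cells in the changes of the binding proteins was not tested. Among 11 hepatocyte markers, 3 were higher and 1 was lower, and their sums ran from 137355 to 148164 in knock-in and from 130901 to 134550 in wild-type livers. The 3 higher were Hnf4a, Tdo2 and Tat, with log2 changes of 0.84, 0.39 and 0.60. Tat read 20045, 18121 and 19240 in knock-in and 10256, 13886 and 14210 in wild-type livers. Hnf4a read 8948, 8707 and 9461 in knock-in and 4529, 5192 and 5479 in wild-type livers. The higher sums in knock-in livers rest largely on Tat and Hnf4a. The genotypes overlapped for Alb, Apoa1, Apob, Fgb and Trf, and Ttr and Cps1 were not called. Tat was not called with mouse 1 left out (limma adjusted p = 0.0507). The 1 lower was Asgr1. With mouse 3 left out 2 hepatocyte markers were lower, and with any of the other mice left out 0 were.

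Other genes of the axis were read from lists, with 1 probe set per gene. Over all genes read that way, 26.7% were called, 13.0% higher and 13.7% lower, and the median log2 change was 0.00. Upstream of Igf1 and Igfals, 3 of 12 genes of growth hormone signalling were called higher and 2 lower, with a median log2 change of 0.17. Ghr, the growth hormone receptor, read 1698, 3016 and 1304 in knock-in livers and 5740, 5083 and 5503 in wild-type livers, a log2 change of -1.52 ± 0.27 (SE; limma adjusted p = 0.00662). Stat5a fell by 0.55 and Stat5b, the main form in liver, was not called (0.19 ± 0.12, SE; limma adjusted p = 0.289). Among the feedback inhibitors, Socs2, a STAT5 target, read 5547, 6106 and 5713 in knock-in livers and 2318, 959 and 1668 in wild-type livers, a rise of 1.89 ± 0.28. The dimmer probe set of Socs2 rose by 1.32 ± 0.20. Socs3 rose by 1.59 ± 0.17 on its brighter probe set and by 0.53 ± 0.14 on its dimmer one (SE; limma adjusted p = 0.00105 and 0.0261). Cish, another STAT5 target, was not called (-0.59 ± 0.24, SE; limma adjusted p = 0.113). The brighter probe sets of Socs2 and Socs3, and Ghr and Stat5a, stayed called whichever mouse was left out.

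Below the receptors, 8 of 20 signalling genes (40.0%) were called higher and 2 lower, with a median log2 change of 0.12. Irs2, an adaptor of the insulin and IGF1 receptors, read 2553, 1473 and 3074 in knock-in livers and 470, 462 and 362 in wild-type livers, a rise of 2.36 ± 0.26 (SE; limma adjusted p = 0.00126). Grb10, an adaptor that restrains both receptors, rose by 0.96 ± 0.12. The transcription factor genes Foxo3 and Foxo1, whose products insulin keeps out of the nucleus, rose by 0.89 ± 0.17 and 0.89 ± 0.20, and Foxo1 was not called with mouse 5 left out (adjusted p = 0.0530). Pik3r1, the regulatory subunit of the lipid kinase, and the kinase Akt2 were the 2 lower, and only 1 of the 2 probe sets of Akt2 was called. With mouse 1, 2 or 5 left out 4 were higher, and with mouse 4 or 6 left out 5 were. With mouse 1, 2, 4 or 6 left out, 0 were lower.

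Igfbp1 was set beside 15 genes listed as held down by insulin in liver through FOXO1. Of the 15, 8 (53.3%) were called higher and 2 (13.3%) lower, with a median log2 change of 0.51. Irs2 also stands in the signalling list, and Tat among the hepatocyte markers. Whether insulin or FOXO1 had a part in these changes was not tested. Ppargc1a, a coactivator of glucose production, read 6447, 5678 and 5635 in knock-in livers and 871, 1433 and 1346 in wild-type livers. Its rise of 2.30 ± 0.18 (SE; limma adjusted p = 0.000454) left no overlap between the groups, and its dimmer probe set rose by 2.42 ± 0.15. Txnip, a thioredoxin-binding protein, rose by 1.83 ± 0.18, and Pdk4, a brake on pyruvate oxidation, rose by 1.67 ± 0.35. The gluconeogenic enzyme genes changed less. Pck1 was called higher by 0.29 ± 0.08 (SE; limma adjusted p = 0.0402), a call that ended with mouse 1, 2, 4 or 5 left out (adjusted p = 0.0725 to 0.123). G6pc was not called (0.37 ± 0.13, SE; limma adjusted p = 0.0692). Mttp and Sesn3 were the 2 lower. With mouse 1 left out 4 of the list were higher, and with mouse 2, 4 or 5 left out 5 were. With mouse 1, 2, 3, 4 or 5 left out, 1 was lower.

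**Figure D3:**
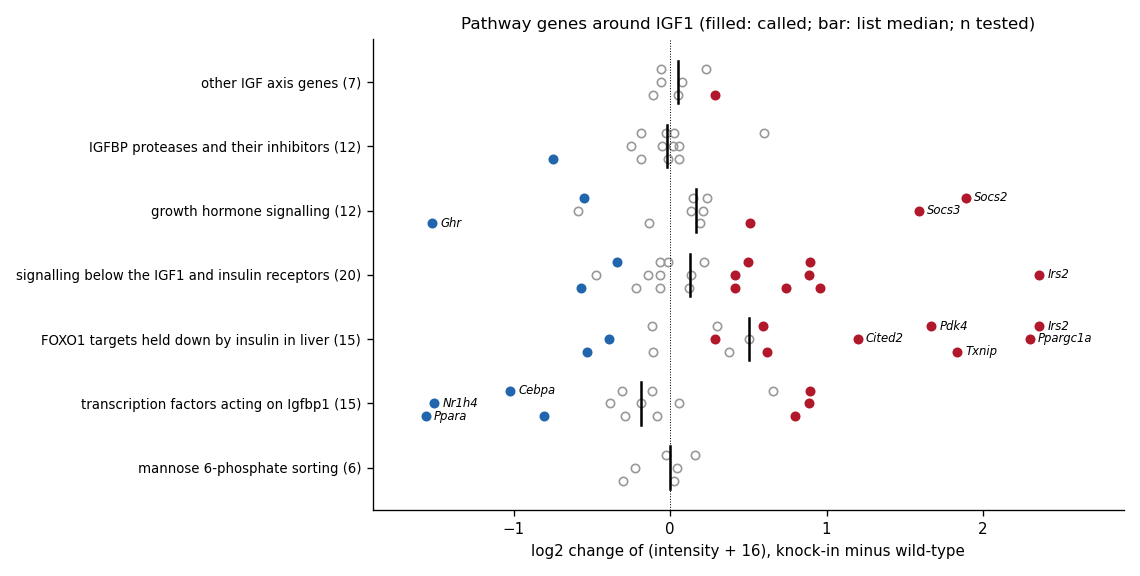
Log2 change of (intensity + 16), knock-in minus wild-type, of each tested gene of 7 lists around IGF1. Filled points were called (red, higher; blue, lower), open points were not, the vertical bar is the median of the list, and the number tested stands in brackets. The genes listed as FOXO1 targets have the highest median (0.51), and 0 of 6 mannose 6-phosphate sorting genes were called.

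Transcription factors known to act on the Igfbp1 promoter moved in both directions, with 3 of 15 called higher and 4 lower (median log2 change -0.18). Besides Foxo1 and Foxo3, Atf4, the factor of the amino acid stress response, was higher by 0.80 ± 0.14 (SE; limma adjusted p = 0.00644). The 4 lower were the nuclear receptor genes Ppara (-1.56 ± 0.19) and Nr1h4 (-1.51 ± 0.24), Cebpa (-1.02 ± 0.13) and Foxa1 (-0.81 ± 0.12). Nr3c1, the glucocorticoid receptor, was not called (-0.11 ± 0.13, SE; limma adjusted p = 0.594). Among 12 proteases that cleave IGF binding proteins and their inhibitors, 0 were called higher by limma, with 0 at an unadjusted p below 0.05, and 1 was called lower. That one was C1s1, a complement protease, at 1725, 2209 and 1294 in knock-in livers and 3055, 2497 and 3098 in wild-type livers (limma adjusted p = 0.0262). With mouse 1, 2 or 6 left out 0 of the 12 were lower, and with mouse 3 left out 3 were. The PAPP-A genes Pappa and Pappa2 lay at 70 or below on every array. Of 6 other genes of mannose 6-phosphate sorting, in which Igf2r works, limma called 0 in either direction, with 1 lower at an unadjusted p below 0.05 and 1 called lower without knock-in mouse 3.

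Genes whose pattern over the 6 mice was nearest to a called member were found by the root mean square difference of log2 values centred on their mean, among 15228 genes. The values describe these arrays only, and smaller changes leave smaller differences. Inhbc (0.08), Hykk (0.12) and Hmgcs1 (0.13) were nearest to Igfals. Inhbc, an inhibin subunit gene of hepatocytes, read 293, 454 and 318 in knock-in livers and 2027, 1569 and 2001 in wild-type livers. Its likeness to Igfals in knock-in mouse 3 and wild-type mouse 4 follows from how it was chosen. Fam107a (0.25), Orm3 (0.30) and Gadd45g (0.32) were nearest to Igfbp1. For Igf2r the nearest were the endocytic receptor gene Lrp1 (0.07), Snap47 (0.07) and Slc12a7 (0.07), and Lrp1 read 2945, 2646 and 3475 in knock-in livers and 5675, 5460 and 5533 in wild-type livers. Kctd18, Prkx and Rcn2 (each 0.04) were nearest to Igf1r. Nearest to Igfbp2 were Mamdc2 (0.03), Arpp19 (0.05) and Ost4 (0.06), and nearest to Igfbp4 were Hebp1, Vps13b and Stxbp4 (each 0.02).

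**Figure D4:**
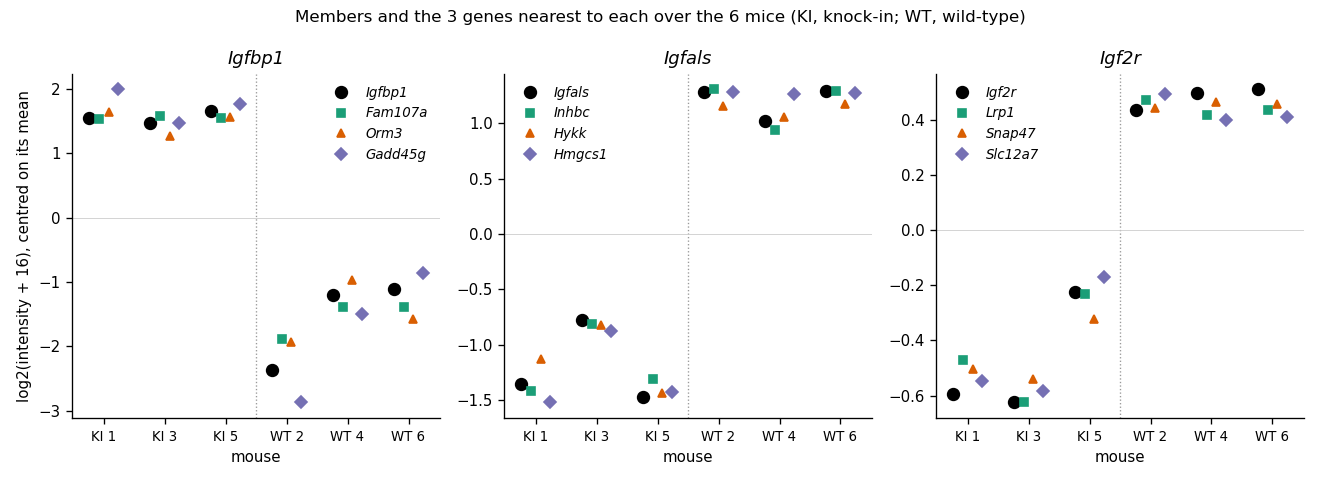
Log2(intensity + 16), centred on its mean over the 6 mice, for Igfbp1, Igfals and Igf2r (black circles) and the 3 genes nearest to each (coloured), with knock-in (KI) mice left of the dotted line and wild-type (WT) mice right of it. Igfbp1 and its nearest genes are low in wild-type mouse 2, Igfals and its nearest genes are the least low in knock-in mouse 3, and Igf2r and its nearest genes are the least low in knock-in mouse 5. The genes were chosen for such likeness.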

How the data were processed

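Liver RNA of 3 knock-in and 3 wild-type mice was biotin-labelled by in vitro transcription and hybridised to 1-colour arrays, per the labels' protocols. The deposited table held 1 linear intensity per probe set and array, in whole numbers. The sources used here do not state how the authors summarised and normalized the probes, and detection calls were not used. Array medians differed by 0.087 on the log2(value + 16) scale, below the limit of 0.1 set for rescaling, so values were used as deposited. The part of probe sets with the lowest mean log2 values (under the 25th percentile) was dropped. The other 26634 entered 1 linear model per probe set in limma 3.58.1 (R 4.3.3; empirical Bayes with a mean trend), and p-values were adjusted by Benjamini-Hochberg over all of them. Gene names are those of the array's annotation, and the 10 member symbols matched RefSeq. In the lists, the probe set with the highest mean stood for a gene. Promoter windows came from RefSeq (GRCm38.p6), matched by symbol, for 10 of 10 members (13 windows), and were read up to the start. Each array is a separate mouse by its label, and the number of arrays limits the precision. The limma SE and p-values rest on the spread between 3 mice per group, moderated by the spread of the other probe sets. The SE of a difference between the genes of a pair is an ordinary one without that moderation. Members, lists and tests were chosen with earlier results of these data known. Named genes are all members, the 3 genes nearest to each called member (clone names left out), and up to 4 called genes per list by smallest p with others of known role. The procedure was also run on simulated data with few changed probe sets and independent noise. These data differ from that setting, so the simulation does not vouch for the calls. Alternatives were pseudocounts of 1 and 64, quantile normalization, centred arrays, other filters, a prior without trend or with robust estimation, weighted arrays, a single probe set for each gene, and each mouse left out.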

Additional observations from a re-analysis of the deposited data

How the results depend on the processing

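Over 17 alternative settings, 158 of 170 values of the members kept their direction and their side of the threshold, 6 lost the call, 6 gained it and 0 changed direction. Settings that altered only the filter, the prior or the probe sets kept leave a member's log2 change as it was. In those settings the direction could not change. The call was lost for Igfbp2 and Igfbp4 with single mice left out. It was gained for Igfbp7 without knock-in mouse 3 and for Igfbp3 in 5 settings: without knock-in mouse 3 (adjusted p = 0.00689), with a pseudocount of 64 (0.0498), with the filter at the 50th percentile (0.0355), with array weights (0.0179) and with 1 probe set per gene (0.0312). Leaving out each mouse gave 4252 to 7728 called probe sets in the whole table, with 2 to 3 members higher and 2 to 5 lower. The lowest counts came without knock-in mouse 1 (4252), wild-type mouse 2 (4478) and wild-type mouse 6 (4551), each of which left 2 members called lower and fewer arrays in the fit. A filter on the mean intensity, chosen after seeing the data, called 6904 of 26664. No paired analysis was run, because the groups share no replicate number and the labels state no pairs. Signal over background could not be judged without detection calls, and Igfbp5, Igf1r and Igf2 lay at 228 or below on every array.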
